A study of Mus musculus with 16 samples.

Results

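Expression was followed for 10 genes that encode proteins of the basement membrane, the thin matrix sheet on which epithelia rest. They are the laminin chain genes Lama1, Lama4, Lama5, Lamb2 and Lamc1, the nidogens Nid1 and Nid2, the perlecan gene Hspg2, and Tinagl and Sparc. They were chosen by name, with earlier results of these data known, and all 10 were found among the 27128 genes of the deposited tables. Expression was measured by RNA sequencing in male germline stem cells (GSCs) of the mouse kept in culture, the counterpart of the stem cells that sustain spermatogenesis. All cultures came from Oct4-GFP+ germ cells of postnatal day 5.5 mice of the B6;CBA-Tg(Pou5f1-EGFP)2Mnn/J line, in which the promoter of Pou5f1 (Oct4) drives GFP. KIT-negative cells had been sorted and grown without serum. The medium (StemPro-34) held the growth factors EGF, bFGF and GDNF, and the support was Matrigel or a feeder layer of mouse embryonic fibroblasts (MEF).

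The 12 RNA libraries belong to 4 experiments, and each library is the only one of its group. In the feeder-removal experiment one culture was on MEF (day 0), and the others had been moved from MEF to Matrigel 4 or 9 days earlier. The density experiment set Matrigel at 0.1 µg/cm2 (the epithelial-like culture) against 10 µg/cm2 (the mesenchymal-like culture). For the sorted series, cells on Matrigel at 10 µg/cm2 were separated by flow cytometry into Oct4-GFP low, mid and high fractions. In the inhibitor experiment, cells on MEF received the solvent DMSO or UNC0638 at 0.5, 1 or 2 µM, the latter for 48 hours. UNC0638 inhibits the histone methyltransferases G9a and GLP. The labels do not say whether feeder cells were removed before lysis, whether cultures came from 1 derivation or from several, or how many animals were used. With 1 library a group the spread between replicates is unknown, so differences are described without p-values.

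Laminins are trimers of 1 alpha, 1 beta and 1 gamma chain that polymerise on cell surfaces and bind integrins and dystroglycan. Nidogens bind the gamma chain encoded by Lamc1 and bridge the laminin network to collagen IV, and perlecan is a large heparan sulfate proteoglycan of the same sheet. SPARC is a secreted collagen-binding glycoprotein, and TINAGL1, the product of Tinagl, is a secreted matrix protein related to cathepsins. In the testis, a basement membrane surrounds the seminiferous tubule, and spermatogonial stem cells lie against it. Matrigel is itself an extract of mouse basement membrane rich in laminin, collagen IV, nidogen and perlecan. The values below are transcripts of the cultured cells and do not measure the protein coated on the dish.

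Promoter sequence is shown for Tinagl and Sparc, which had the largest ratios between the Matrigel densities, and for Lama5, whose ratio was closest to no change. The sequences are the 250 bases upstream of the RefSeq start, 5′ to 3′ on the gene's strand in GRCm38.p6, a patch release of the assembly that mm10, the build in the submitters' processing notes, stands for. For Lama5 only the 205 bases outside the annotated gene are printed. Capitals mark matches to 4 motifs searched on both strands, with no overlap between matches: AP-1 (TGANTCA), TEAD (CATTCC), GC box (GGGCGG) and TATA box (TATAAA).
Tinagl, chr4:130175123-130175372, minus strand: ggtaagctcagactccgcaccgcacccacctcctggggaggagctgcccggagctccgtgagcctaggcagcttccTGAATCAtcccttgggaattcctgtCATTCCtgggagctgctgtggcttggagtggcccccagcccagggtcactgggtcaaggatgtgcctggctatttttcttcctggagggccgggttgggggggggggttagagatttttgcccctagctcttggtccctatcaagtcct
Sparc, chr11:55420081-55420330, minus strand: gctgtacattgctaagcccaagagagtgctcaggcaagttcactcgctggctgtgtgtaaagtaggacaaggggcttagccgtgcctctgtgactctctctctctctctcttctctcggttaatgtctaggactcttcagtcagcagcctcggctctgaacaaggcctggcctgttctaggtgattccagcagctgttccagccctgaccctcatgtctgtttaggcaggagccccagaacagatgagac
Lama5, chr2:180225905-180226109, minus strand: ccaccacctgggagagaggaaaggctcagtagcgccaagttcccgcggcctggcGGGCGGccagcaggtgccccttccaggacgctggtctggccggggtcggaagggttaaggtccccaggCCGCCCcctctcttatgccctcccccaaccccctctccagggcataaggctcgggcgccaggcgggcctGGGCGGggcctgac
The Tinagl window held 1 AP-1 and 1 TEAD match, the Sparc window held no match to the 4 motifs, and the Lama5 window held 4 GC boxes, 3 of them in the printed bases. Of 32851 RefSeq promoter windows of this length, 6.75% held the AP-1 letters, 12.6% the TEAD letters, 32.7% the GC box and 12.4% the TATA box. Tinagl1, as RefSeq names the gene, has 2 listed starts, and the window of the other start held 4 GC boxes and neither AP-1 nor TEAD letters. Among the rest of the set, Hspg2 (5 GC boxes), Nid1 (1 GC box and 1 TEAD match) and Lamb2 (no match) had an entry, which makes 6 of 10 genes. Lama1, Lama4, Lamc1 and Nid2 had none. These matches are letters in a window and say nothing of whether a factor binds there.

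Depth and cell makeup set what can be read from the libraries. Totals ranged from 4335185 to 12019651 expected counts, so that 3 counts, taken here as the lowest visible level, corresponded to 0.238 to 0.724 CPM, the unit that scales counts to a common library total. Every one of 20 germ cell markers was detected in all 12 libraries, and their summed level was between 4903 CPM in the mesenchymal-like library and 7069 CPM in the GFP-low library. A list of 20 fibroblast markers summed to 6078 CPM in the mesenchymal-like library, 3318 CPM with DMSO and 1154 CPM at 0.5 µM UNC0638, and to between 147 and 624 CPM in the other 9. Between 0 and 3 of the 20 were at 0 counts in a library. The 10 macrophage markers summed to 1921, 1770 and 225 CPM in the fractions of low, mid and high GFP, against at most 47.6 CPM elsewhere.

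Per transcript length, the set spanned a wide range. The median over the 12 libraries was 146 TPM, a level corrected for transcript length, for Nid2, 42.1 TPM for Sparc and 36.0 TPM for Nid1. Lamb2 followed at 13.0, Lamc1 at 12.2, Lama5 at 8.96, Hspg2 at 4.00, Lama4 at 2.53, Tinagl at 1.92 and Lama1 at 0.315 TPM. Lama1, whose product is the alpha chain that dominates Matrigel, was the lowest of the set by this median. Its counts lay between 8 and 39 per library, and none of the 11 steps between neighbours in its order of levels exceeded counting error. Sparc had the fewest of its 11 neighbouring steps within counting error, 3, against 4 for Nid1, 5 for Nid2 and 6 for Hspg2. There were 7 for Lama5, 8 for Lamb2, 9 for Lama4 and Lamc1, and 10 for Tinagl. Such counts depend on the reads of a gene and are no ranking of how much it varied. Tinagl ranged from 0 to 128 CPM.

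**Figure D1:**
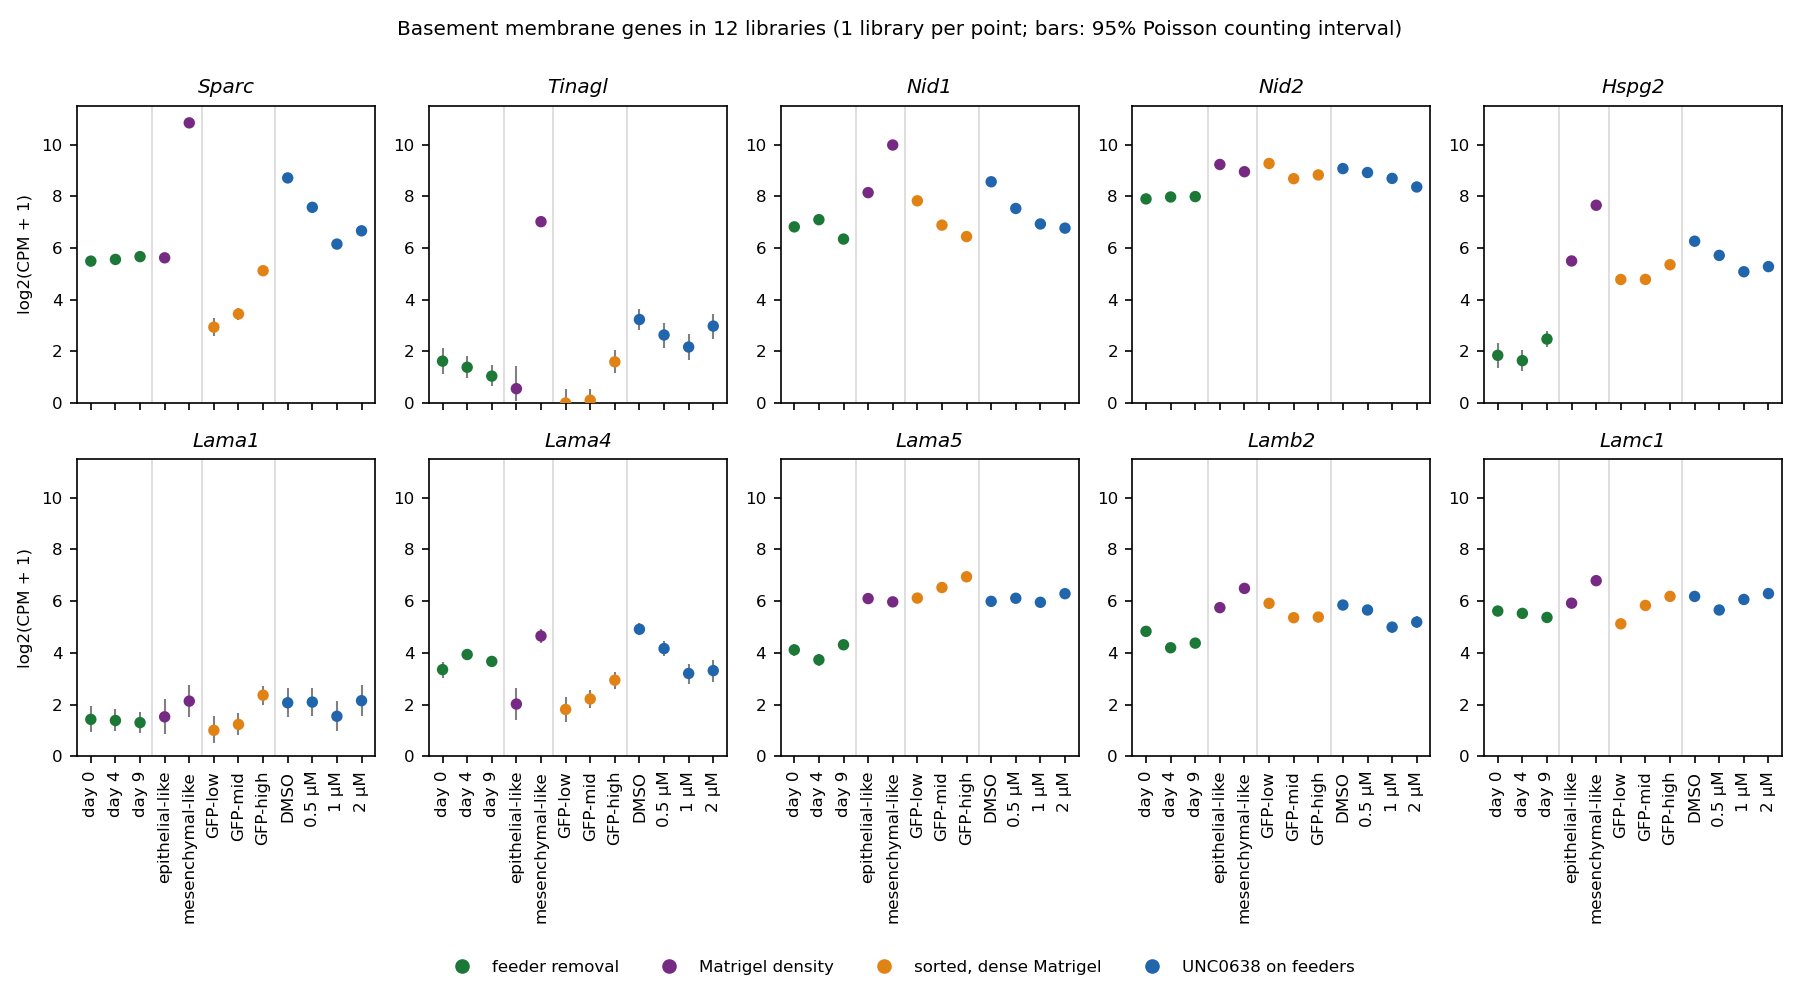
Level of each of the 10 genes in the 12 libraries, as log2(CPM + 1) on the vertical axis, 1 point a library, with bars for 95% Poisson counting intervals and colours for the 4 experiments. Sparc, Tinagl, Nid1, Hspg2, Lamb2 and Lamc1 stand highest in the mesenchymal-like library, while Nid2, Lama1, Lama4 and Lama5 do not.

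Dense Matrigel carried much higher transcript levels of 5 of the 10 genes: Tinagl, Sparc, Lama4, Hspg2 and Nid1 were at least 2-fold higher at 10 than at 0.1 µg/cm2, and none was at least 2-fold lower. Across all 14301 genes that passed the expression filter, 10.7% were at least 2-fold higher and 1.78% at least 2-fold lower. The median log2 ratio was 1.36 over the set and -0.06 over all genes. Ratios are log2 of (CPM + 1), dense over sparse, and the intervals printed with folds are 95% Clopper-Pearson intervals of how the reads split between the libraries, which cover counting error only. The interval lay above no change for 7 genes and below it for Nid2, where 20.8% and 22.0% of all genes did so. In bulk RNA, more cells of a type and more RNA per cell cannot be told apart.

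The glycoproteins Sparc and Tinagl stood furthest apart. Sparc was at 48.1 CPM (205 counts) in the epithelial-like library and at 1832 CPM (7586 counts) in the mesenchymal-like library, a ratio of 38.1-fold (counting interval 33.1 to 43.9). By TPM it ranked 4144th of all genes in the former and 107th in the latter. Tinagl had 2 counts in the epithelial-like library and 532 counts, or 128 CPM, in the mesenchymal-like one. That is a ratio of 274-fold with a counting interval of 75.4 to 2265, wide because the sparse culture held so few reads. Outside this library, Tinagl did not exceed 8.38 CPM, its level with DMSO.

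The nidogens diverged. Nid1 was at 281 CPM in the epithelial-like and 1011 CPM in the mesenchymal-like library, 3.59-fold higher (3.37 to 3.84), whereas Nid2 was at 599 and 494 CPM, a ratio of 0.824-fold (0.777 to 0.873). Hspg2 was 4.54-fold higher (3.87 to 5.34), at 44.1 against 200.2 CPM. Its transcript, at 14171 bases, is the longest of the set. The 248 filtered genes of at least 9000 bases had a median log2 ratio of -0.15 in this comparison, and 12.5% of them were at least 2-fold higher and 0.403% lower. The part of length in the Hspg2 ratio was not tested.

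Among the laminin chains, Lama4 was at 3.05 CPM (13 counts) on sparse and 24.1 CPM (100 counts) on dense Matrigel, 7.91-fold higher (4.42 to 15.4). Lama4 encodes an alpha chain that is prominent around blood vessels and in mesenchyme. Lamb2, a beta chain gene, was at 52.8 and 89.1 CPM, a log2 ratio of 0.74. Lamc1, which encodes the gamma chain found in most laminins, was at 59.6 and 110 CPM, a log2 ratio of 0.87. Both ratios stayed under 2-fold, with counting intervals above no change. Lama5, the alpha chain gene typical of mature epithelial basement membranes, was at 67.6 and 61.8 CPM, and its interval of 0.770 to 1.09-fold spanned no change. Lama1 had 8 and 14 counts, and a difference was not detectable at this depth (0.705 to 4.95-fold).

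**Figure D2:**
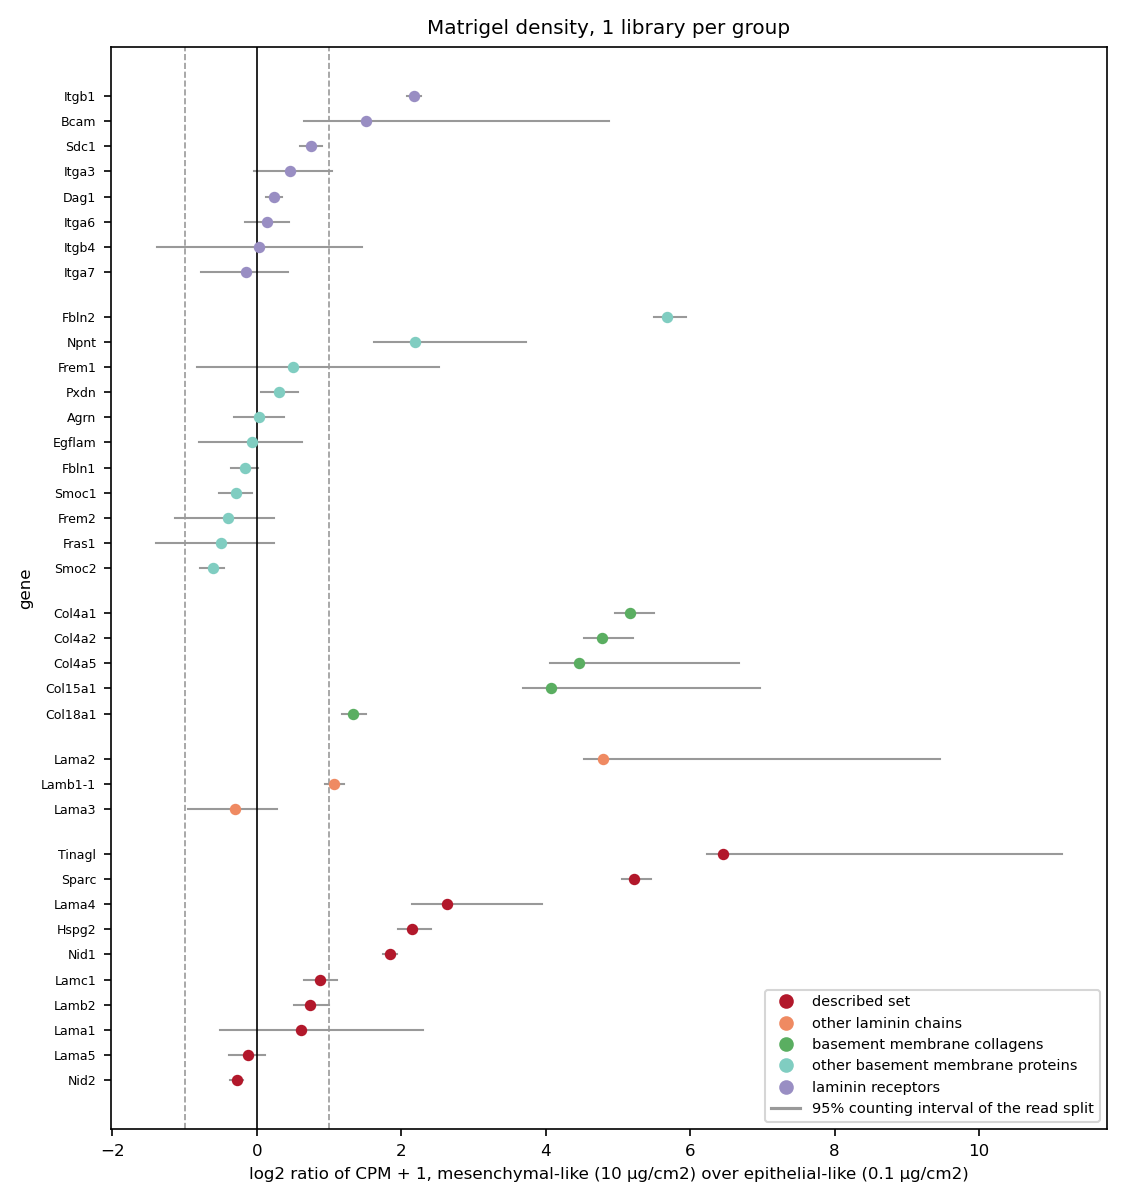
Log2 ratio of CPM + 1 between the mesenchymal-like and epithelial-like libraries (horizontal axis) for the described genes and the genes of 4 related lists that passed the filter, with grey lines for 95% counting intervals of the read split and dashed lines at 2-fold. Tinagl (6.46) and Sparc (5.22) stand near Col4a1 (5.17), Col4a2 (4.78) and Fbln2 (5.68), whereas Lama5 (-0.13) and Nid2 (-0.28) lie left of 0.

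Lists of related genes were set beside the 10, and 10.7% of all genes were at least 2-fold higher. Of 5 other laminin chain genes 3 passed the filter and 2 were at least 2-fold higher: Lamb1-1 (Lamb1) at 167 and 352 CPM, and Lama2, the alpha chain of muscle and peripheral nerve, with 2 and 165 counts. Of 8 basement membrane collagens 5 passed. Col15a1, with 4 and 131 counts, passed only through the dense library, so the filter fixed its direction. The other 4 were at least 2-fold higher. Col4a1 stood at 27.9 and 1044 CPM, Col4a2 at 17.4 and 505 CPM, and Col18a1 at 95.3 and 242 CPM. Of 16 other basement membrane proteins 11 passed and 2 were at least 2-fold higher, with a median of -0.07. Fbln2, a nidogen- and laminin-binding fibulin, was among them at 39.4 and 2075 CPM, while Fbln1 was at 122 and 108 CPM and Smoc2, a relative of Sparc, at 173 and 113 CPM. Of 8 laminin receptor genes 2 were at least 2-fold higher, among them the integrin beta chain gene Itgb1 at 222 and 1003 CPM. The dystroglycan gene Dag1 was at 310 and 366 CPM, and Itga6, a marker integrin of spermatogonial stem cells, at 41.8 and 46.1 CPM. Of 10 matrix folding and crosslinking enzymes 5 were at least 2-fold higher, including the lysyl oxidase gene Lox at 22.3 and 1481 CPM and the collagen chaperone gene Serpinh1 at 29.3 and 303 CPM. The more abundant P4hb was at 984 and 1192 CPM.

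Markers of other cells moved with this comparison. Of 19 fibroblast markers that passed the filter 18 were at least 2-fold higher on dense Matrigel, with a median log2 ratio of 4.62, and the summed level of the 20 was 274 and 6078 CPM. Col1a1 was at 84.0 and 2377 CPM and Col1a2 at 27.0 and 1353 CPM. Peritubular myoid and smooth muscle markers summed to 4.69 and 257 CPM, with Acta2 at 2.11 and 189 CPM. Of the 4 of them that passed the filter 3 were at least 2-fold higher, where 10.7% of all genes were. The interval of the other included no change. The 20 germ cell markers summed to 6186 and 4903 CPM with none 2-fold apart, and Dazl was at 1842 and 1434 CPM. Markers of parietal and visceral endoderm, the cells that make a thick laminin-rich membrane in the embryo, summed to 330 and 315 CPM, but not every one was level. Of the 8 that passed the filter 2 were at least 2-fold higher, Thbd at 0.704 and 37.7 CPM and Dab2 at 2.82 and 17.1 CPM, and the intervals of 3 others lay below no change. Sertoli (19.0 and 38.6 CPM), macrophage (23.7 and 47.6 CPM), endothelial (14.8 and 14.0 CPM) and Leydig markers (7.04 and 5.07 CPM) were low in both libraries. The part of fibroblast-like or muscle-like cells in the higher matrix transcripts was not tested.

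The sorted fractions were grown at the same labelled density of 10 µg/cm2 and did not carry the levels of the unsorted dense culture. Sparc stood at 6.65, 9.90 and 33.8 CPM in the low, mid and high GFP fractions, all below the 48.1 CPM of the sparse culture. The unsorted dense library exceeded them 276-fold (211 to 368), 185-fold (155 to 223) and 54.3-fold (48.5 to 60.9). Tinagl had 0, 1 and 19 counts in the fractions, and the 532 counts of the unsorted culture were at least 341-fold higher than the GFP-low level, taken at the floor of 3 counts in that library, and 63.7-fold higher (40.4 to 107) than the GFP-high level. Nid1 in the unsorted library was 4.48-fold, 8.64-fold and 11.8-fold above the fractions, and Hspg2 was 7.56-fold, 7.54-fold and 5.03-fold above them. Over the GFP-low fraction 7 of the 10 genes were at least 2-fold higher and none lower, where 12.4% and 5.59% of all genes were. Over GFP-mid and over GFP-high 6 of 10 were higher and none lower, where 10.3% and 11.2% of all genes were higher and 6.19% and 7.59% lower. Lama5 and Nid2 stayed under 2-fold against all 3 fractions. Lama5 was at 61.8 CPM unsorted and at 68.5, 91.3 and 122 CPM in the fractions, and Nid2 at 494 against 615, 409 and 452 CPM. These ratios share the unsorted library, and the sort cannot be told apart from the experiment each library belongs to.

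Fibroblast markers summed to 147, 186 and 297 CPM in the fractions against 6078 CPM unsorted, with 3, 3 and 2 of the 20 at 0 counts. Col1a2 was at 0.627 CPM in the GFP-low fraction. Peritubular myoid and smooth muscle markers summed to 3.26, 4.75 and 4.67 CPM in the fractions against 257 CPM unsorted. Over each fraction, 3 of the 4 that passed the filter were at least 2-fold higher unsorted. The other was at least 2-fold lower over GFP-high, where 11.2% of all genes were higher and 7.59% lower. Its interval included no change over GFP-low and GFP-mid. Macrophage markers were higher in the fractions, at 1921, 1770 and 225 CPM against 47.6 CPM unsorted. The part of these cells in the differences was not tested. Of the other lists, 4 basement membrane collagens passed the filter besides Col15a1. All 4 were at least 2-fold higher in the unsorted culture than in the GFP-low fraction, where 12.4% of all genes were. Col4a1 was at 1044 and 3.51 CPM. The fractions were also set against the sparse culture. In the GFP-low fraction none of the 10 was at least 2-fold above the epithelial-like library and 1, Sparc, was at least 2-fold below it, where 4.64% and 4.72% of all genes were. In GFP-mid none was above and 2, Sparc and Nid1, were below, where 5.93% and 3.14% of all genes were. In GFP-high Tinagl was above, with 19 against 2 counts (4.30-fold, 1.04 to 38.0), and Nid1 below, where 7.7% and 3.69% of all genes were. Nid1 was at 226, 117 and 85.8 CPM in the fractions and at 281 CPM in the epithelial-like library.

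Within the sorted series, the set split by direction. Levels increased from GFP-low through GFP-mid to GFP-high for 7 of the 10 genes (Lama1, Lama4, Lama5, Lamc1, Hspg2, Tinagl and Sparc), where 24.5% of all genes did, and decreased for Nid1, where 26.9% did. The step from GFP-low to GFP-mid exceeded counting error upward for Lama5, Lamc1 and Sparc among the 7. In GFP-high over GFP-low 5 were at least 2-fold higher and Nid1 at least 2-fold lower, against 6.94% and 2.59% of all genes, and the median log2 ratio was 0.94 against -0.02. In GFP-mid over GFP-low none of the 10 passed 2-fold in either direction, where 3.38% of all genes were higher and 0.685% lower. Both ratios share the GFP-low library. Pou5f1, whose reporter set the gates, was at 83.9, 176 and 367 CPM in the 3 fractions.

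Sparc had 53, 125 and 318 counts in the 3 fractions, and GFP-high was 5.08-fold above GFP-low (3.79 to 6.93). Tinagl, with 0, 1 and 19 counts, was at least 5.36-fold higher in GFP-high, taken against a floor of 3 counts in the GFP-low library. Lama1 had 8, 17 and 39 counts, 4.13-fold higher in GFP-high (1.90 to 10.2). For Lama4, 20, 46 and 63 counts gave 2.67-fold (1.59 to 4.66). Lamc1 stood at 33.9, 56.1 and 71.8 CPM, 2.12-fold higher (1.84 to 2.45). The calls for Lama1 and Lama4 were lost on the deposited TPM scale, at log2 ratios of 0.61 and 0.86, and those for Lama1, Lama4, Lamc1 and Tinagl with a pseudocount of 5.

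Lama5 and Hspg2 stayed under 2-fold. Lama5 stood at 68.5, 91.3 and 122 CPM, a log2 ratio of 0.83 between the end fractions, and Hspg2 at 26.5, 26.5 and 39.8 CPM, a log2 ratio of 0.57. Genes of at least 9000 bases, a class that holds Hspg2, Lama5 and Lama1, had a median log2 ratio of 0.30 here. Nid1 ran the other way at 226, 117 and 85.8 CPM, a log2 ratio of -1.38 in GFP-high. Nid2 stood at 615, 409 and 452 CPM and Lamb2 at 59.3, 40.1 and 40.8 CPM, both highest in GFP-low.

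Beside these values, 10 of 19 fibroblast markers were at least 2-fold higher in GFP-high than in GFP-low, where 6.94% of all genes were. Col1a1 was at 22.2 and 104 CPM. The 10 macrophage markers summed to 1921 CPM in GFP-low and 225 CPM in GFP-high, with the lysozyme gene Lyzs at 1524 and 182 CPM. Several of them passed the filter only through the GFP-low and GFP-mid libraries, so no count of them is given. Of 5 basement membrane collagens, counting Col15a1 at 0 counts in both fractions, 3 were at least 2-fold higher, with Col4a1 at 3.51 and 20.2 CPM. Of 8 laminin receptors 3 were, but the abundant Dag1 (507 and 450 CPM) and Itgb1 (204 and 217 CPM) were not. The part of macrophages or fibroblasts in the fractions' values was not tested.

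**Figure D3:**
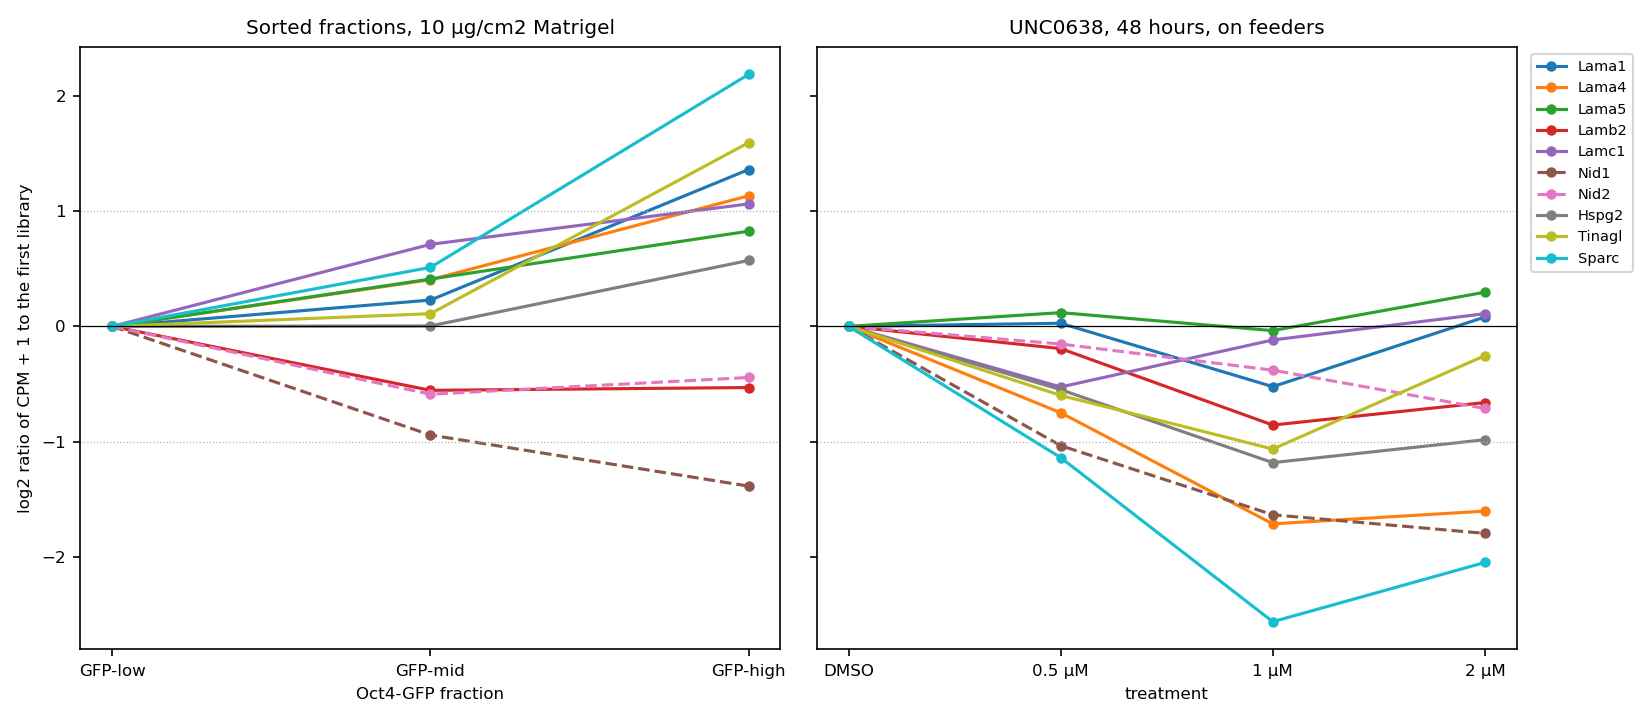
Log2 ratio of CPM + 1 to the first library of each series for the 10 genes, left by Oct4-GFP fraction (over GFP-low) and right by treatment (over DMSO). In the left panel Sparc climbs to 2.18 and Nid1 drops to -1.38, and in the right panel Sparc is lowest at 1 µM (-2.56) and Nid1 at 2 µM (-1.79).

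UNC0638 was accompanied by lower levels of several of the 10 genes, with Sparc and Nid1 at least 2-fold lower at every dose. At 0.5, 1 and 2 µM, 2, 5 and 3 genes were at least 2-fold below DMSO and none above, where 2.13%, 4.12% and 3.59% of all genes were lower and 1.58%, 2.59% and 3.42% higher. The medians of the set were -0.54, -0.96 and -0.69 in log2 ratio, and those of all genes -0.01, 0.00 and -0.02. The 3 ratios share the DMSO library.

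Sparc was at 418 CPM with DMSO and at 189, 70.0 and 100 CPM at the 3 doses. It was 2.21-fold, 5.97-fold and 4.16-fold lower than with DMSO, and so lowest at 1 µM. Nid1 was at 377 CPM with DMSO and at 184, 121 and 108 CPM, 2.05-fold, 3.12-fold and 3.49-fold lower. By their CPM values, Nid1 and Nid2 were the only genes of the set to decrease at each dose step, where 7.81% of all genes did so and 6.50% increased at each. The counting intervals of Nid1 at 1 and 2 µM overlapped. For Nid2 the levels were 537, 483, 412 and 327 CPM, a log2 ratio of -0.71 at 2 µM.

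Lama4 was at 29.1 CPM with DMSO and at 17.0, 8.20 and 8.93 CPM, 3.55-fold lower at 1 µM and 3.26-fold lower at 2 µM. Hspg2 was at 75.7, 51.4, 32.8 and 37.8 CPM, 2.31-fold lower at 1 µM and 2.00-fold lower at 2 µM, where the log2 ratio of CPM + 1 was -0.98 and so not called. Tinagl had 42, 27, 20 and 30 counts, and its interval excluded no change at 1 µM alone, where it was 2.40-fold lower. That call was lost with a pseudocount of 5, at a log2 ratio of -0.66. Lamb2 was at 56.7, 49.5, 30.9 and 35.5 CPM, within 2-fold throughout. Lama5 was at 62.7, 68.2, 61.1 and 77.2 CPM, and its interval lay above no change at 2 µM, at a log2 ratio of 0.30. Lamc1 was at 71.7, 49.5, 66.0 and 77.4 CPM, lowest at 0.5 µM. Lama1 had 11 to 17 counts, with no detectable difference at this depth.

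Fibroblast markers moved in the same libraries. Their sum was 3318 CPM with DMSO and 1154, 504 and 624 CPM at 0.5, 1 and 2 µM. Sparc was likewise lowest at 1 µM, and its step to 2 µM exceeded counting error. Hspg2, Lama4, Lamb2, Tinagl, Lama1 and Lama5 also had their lowest value of this series at 1 µM, although for Lama1 and Lama5 the counting interval of the ratio to DMSO included no change. For Hspg2, Lama4 and Lamb2 the step to 2 µM was within counting error. For Tinagl only the step from 0.5 to 1 µM was, and Tinagl stood at 3.49 CPM at 1 µM and 6.87 CPM at 2 µM. Of 19 markers, 13, 19 and 15 were at least 2-fold lower, where 2.13%, 4.12% and 3.59% of all genes were. Among them was Lum, which passed the filter only through the DMSO library. Col1a1 was at 1088 CPM with DMSO and 149 CPM at 2 µM, and Col3a1 was at 377, 97.4, 12.7 and 18.1 CPM. Germ cell markers summed to 5870, 6267, 6080 and 5472 CPM. Of 5 basement membrane collagens, counting Col15a1 with 5 counts under DMSO, 1, 3 and 3 were at least 2-fold lower, with Col4a1 at 208, 100.5, 45.9 and 55.2 CPM. Of 10 folding and crosslinking enzymes 2, 4 and 4 were, with Lox at 466, 193, 59.7 and 93.7 CPM but P4hb at 1274, 1282, 1138 and 1112 CPM. Cells in this experiment shared the dish with MEF feeders, and the part of feeder RNA in these values was not tested.

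After transfer from MEF to Matrigel few genes of any kind were 2-fold from day 0. At least 2-fold higher and lower were 1.25% and 1.03% of all genes at day 4 and 1.62% and 0.979% at day 9, and none of the 10, a count that does not set them apart from other genes. The medians of the set were -0.07 and -0.02. Sparc was at 44.0, 46.0 and 49.7 CPM at days 0, 4 and 9, and Nid2 at 237, 250.1 and 253 CPM. Lamb2 was at 27.5, 17.3 and 19.8 CPM, with log2 ratios of -0.63 and -0.46 whose intervals lay below no change. Nid1 was at 112, 136 and 80.2 CPM, above no change at day 4 (0.28) and below it at day 9 (-0.47). Lama4 was at 9.20, 14.3 and 11.7 CPM, with the interval above no change at day 4 alone. Lama5 was at 16.3, 12.3 and 18.9 CPM, below no change at day 4. Lamc1 was at 48.1, 45.1 and 40.3 CPM, below no change at day 9. Hspg2 had 20, 25 and 56 counts, with a log2 ratio of 0.63 at day 9, where genes of at least 9000 bases had a median of 0.35. The intervals of Hspg2 and Nid2 lay above no change at day 9. Tinagl (16, 19 and 13 counts) and Lama1 (13, 19 and 18 counts) did not differ detectably at this depth. Fibroblast markers summed to 350.5, 334 and 379 CPM, and both ratios share the day 0 library.

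Levels differed between the feeder cultures of different experiments. DMSO and day 0 are both on MEF without inhibitor, yet 8 of the 10 genes were at least 2-fold higher with DMSO and none lower, where 12.2% and 7.22% of all genes were. With a pseudocount of 5 the Tinagl and Lamb2 calls were lost, at log2 ratios of 0.92 and 0.93, and on TPM that of Lamb2, at 0.96. Hspg2 was at 2.59 and 75.7 CPM, 29.2-fold higher (18.6 to 48.3), and Sparc at 44.0 and 418 CPM, 9.50-fold higher (8.47 to 10.7). Tinagl was 4.04-fold, Lama5 3.84-fold, Nid1 3.37-fold and Lama4 3.17-fold higher. The exceptions were Lamc1 at a log2 ratio of 0.57 and Lama1 at 0.64. Fibroblast markers summed to 350.5 and 3318 CPM. Genes of at least 9000 bases had a median log2 ratio of 0.63 against 0.01 for all genes, and 30.2% of them were at least 2-fold higher. DMSO, the experiment and any batch cannot be told apart here. The comparison was added after the values were seen, and it bears on any level set across experiments.

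Summed over the alpha and beta chain classes, laminin transcripts were higher for beta chains in every library. In the epithelial-like library the alpha and beta classes totalled 11.8 and 58.3 TPM, and in the mesenchymal-like library 21.5 and 112 TPM. Lamb1-1 made up between 71.0% and 91.5% of the beta class in every library, and Lamb2 most of the rest. In the alpha class, Lama5 held 75.1% of it in the epithelial-like library and 79.7%, 81.3% and 77.0% in the low, mid and high GFP fractions, but 36.1% in the mesenchymal-like library. There Lama4 held 27.7% and Lama2 27.4%, the latter at 5.88 TPM. Lama5 held 42.9% of the alpha class with DMSO and 52.9%, 61.5% and 63.9% at 0.5, 1 and 2 µM UNC0638. In the feeder-removal experiment Lama5 held between 19.6% and 29.2%, with Lama3 and Lama4 sharing most of the remainder. Shares within a class show unequal levels and not which chain changed, and transcripts do not count assembled trimers.

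**Figure D4:**
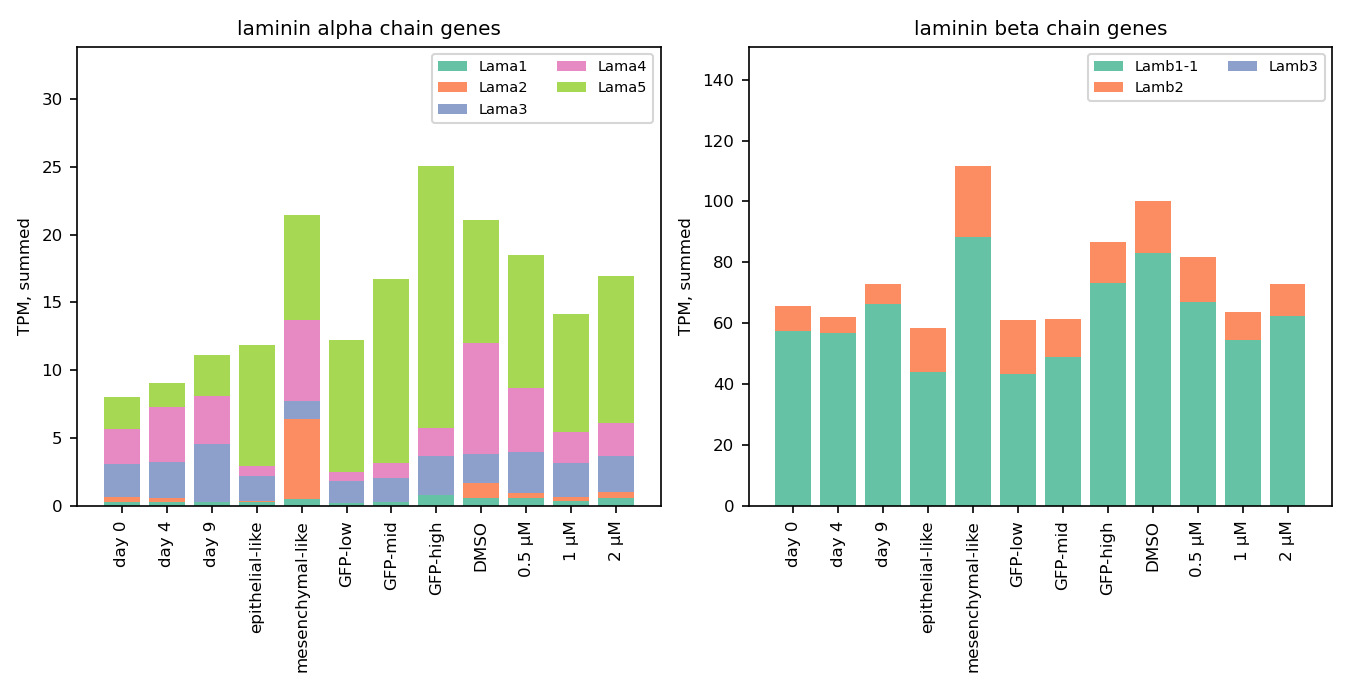
Deposited TPM summed over the laminin alpha (left) and beta (right) chain genes in each of the 12 libraries, stacked by gene. Lama5 fills most of the alpha bar on sparse Matrigel and in the sorted fractions, while in the mesenchymal-like library Lama4 (27.7%) and Lama2 (27.4%) fill a larger part.

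The balance of the nidogens set the mesenchymal-like library apart. It held 246 TPM of Nid1 and 147 TPM of Nid2, a ratio of 1.67. In the other 11 libraries Nid2 was the more abundant transcript, and the Nid1 to Nid2 ratio was between 0.155 in the GFP-high fraction and 0.573 with DMSO. The ratio was 0.383 in the epithelial-like library, 0.299 and 0.233 in the GFP-low and GFP-mid fractions and 0.311, 0.239 and 0.269 at 0.5, 1 and 2 µM UNC0638. Collagen IV, which nidogens tie to laminin, was at 232 TPM for Col4a1 in the mesenchymal-like library, 53.0 TPM with DMSO and 6.47 TPM in the epithelial-like library.

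Genes with the most similar profile were found for 5 of the set as the highest Pearson correlation of log2(CPM + 1) over the 12 libraries, among the 9598 genes that averaged 10 CPM or more. Sparc was most like Fbln2 (r = 0.992), Col4a2 (0.986) and Col1a2 (0.986). Tinagl was most like Cdkn2b (0.988), Htra1 (0.979) and Anxa1 (0.970). Its values lean on 1 library, since Tinagl was at 128 CPM in the mesenchymal-like library and at most 8.38 CPM elsewhere. Nid1 was most like Ssr4 (0.960), Vdac1 (0.945) and Itm2c (0.929), Lamc1 like Eif2c2 (0.944), Mod1 (0.941) and Ckap4 (0.936), and Lama5 like Gltscr1 (0.987), Pdap1 (0.983) and Cramp1l (0.983). The 12 points share experiments and culture types, so these values describe the libraries, and no p-value is attached.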

How the data were processed

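RNA was made into libraries by a modified Smart-seq2 procedure, per the labels' protocols, and the submitters' processing notes name Trim Galore, RSEM and mm10, with no version; the aligner and annotation release are not given in the sources used here. Each library has its own table. In it the authors deposited an expected count per gene, which RSEM estimates and may leave fractional (8.52% to 10.7% of genes in a library), so the counts were rounded. The authors' deposited TPM, scaled to transcript length and library, were used as given. The deposited transcript lengths, per the file headers, served the length class. How shared reads were divided between similar genes was not checked.

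CPM were scaled by edgeR 4.0.16 TMM factors (0.912 to 1.07; R 4.3.3). Of 27128 genes, 14301 averaged 1 CPM or more across the 12 libraries, and all 10 members were among them. Ratios are log2 of CPM + 1, called at 2-fold; the pseudocount understates the change of low genes. Intervals are 95% Clopper-Pearson intervals without the pseudocount, so a low gene's ratio can fall outside its interval. Reads carry no molecular identifiers, so intervals and the floor of 3 counts cover counting error only. A library at 0 counts was set at the floor to give a bound, and ratios against 1 to 3 counts are given with their interval.

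The members and the 13 gene lists (138 entries, all found, some by an older symbol or RefSeq transcript) were chosen with earlier results of these data known. Loxl1 is in both the fibroblast and the crosslinking list, and Gata4 in both the endoderm and the Sertoli list. Named genes were the members, the list genes with the highest mean CPM in a comparison, and the 3 most similar profiles for 5 members; any laminin chain was named for the chain shares, Pou5f1 was named as the reporter gene, and Itga6, Col15a1, Lum, Thbd and Dab2 were named after their values were seen. The steps were tested on simulated data. Alternatives were DESeq2 1.42.0 size factors, total counts, TPM, pseudocounts of 0.1 and 5, no filter and a filter at 10 CPM. Scripts ran in Python 3.11.15 (pandas 2.3.3, scipy 1.17.1). Promoters come from RefSeq, GRCm38.p6. Totals of the gamma chain class are not reported here, and the 4 ATAC-seq libraries were not analysed here.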

Additional observations from a re-analysis of the deposited data

How the results depend on the processing

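Of 80 member ratios (10 genes in 8 comparisons) 21 were called at 2-fold, and none of the 80 changed sign under the alternatives that rescale a ratio. DESeq2 size factors, total counts and a pseudocount of 0.1 kept all 21 calls. The deposited TPM lost 2, Lama1 (0.61) and Lama4 (0.86) in GFP-high, so that 3 members were higher there. A pseudocount of 5 lost 5: Lama1 (0.61), Lama4 (0.64), Lamc1 (0.98) and Tinagl (0.49) in GFP-high, which left 1 member higher, and Tinagl at 1 µM (-0.66). On TPM the median over all genes was 0.13 at day 9 and 0.11 in GFP-high, against 0.02 and -0.02. Counts over all genes moved with the pseudocount and the filter. With a pseudocount of 0.1 the genes higher and lower were 550 and 481 at day 4, 611 and 414 at day 9, 978 and 289 in GFP-mid, 1531 and 619 in GFP-high, and 550 and 619, 700 and 956, and 879 and 872 at 0.5, 1 and 2 µM; 635 were lower on dense Matrigel. With a pseudocount of 5 they were 992 and 12 for density, 8 and 9 at day 4, 7 and 23 at day 9, 162 and 20 in GFP-mid, 377 and 144 in GFP-high, and 16 and 60, 97 and 205, and 91 and 137 at the 3 doses. With a filter at 10 CPM they were 643 and 37, 17 and 12, 48 and 36, 247 and 33, 478 and 144, 25 and 71, 121 and 182, and 126 and 159 in the same order. For DMSO over day 0, which is outside the 80 ratios, 860 and 439 genes were higher and lower with a pseudocount of 5 and 1000 and 507 with a filter at 10 CPM, against 1743 and 1033; the members higher were 6 with a pseudocount of 5 and 7 on TPM, against 8. Laminin chain totals recomputed from rounded counts changed by at most 0.116%. Leaving out a replicate was not possible with 1 library a group, and depth limits Lama1 and Tinagl most. No paired analysis was possible because each RNA group has 1 library, and the ATAC-seq libraries that share replicate numbers were not analysed here.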
